A study of Mus musculus with 6 samples.

Results

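The genes described here encode splicing factors, the kinases that phosphorylate them, and the RNA helicases and RNA-binding proteins of the same name families. A gene was a member if its symbol began with Srsf, Hnrnp, Sf3a, Sf3b, Snrp, U2af, Prpf, or with Rbm or Ddx followed by a number (Rbmx included), or was Clk1 to Clk4, Tra2a or Tra2b. The rule used names and no measured value. It held 396 of the 36659 transcripts and 81 of the 6357 single genes of the series, and 80 of 154 protein-coding genes of these names in the GENCODE M21 annotation were detected. A transcript is a group of PacBio reads of cDNA with the same cell, gene and UMI, a random tag of 6 bases added to the molecule before amplification. The 6 cells were picked from mouse brain of the CD-1 strain, and the labels give all of them the stage embryo and name no genotype or treatment. The labelled stage was not checked, also for the cells that the study calls mature. By the study's account the cells came from hippocampus and cortex. In the words of the study they were 2 vascular and leptomeningeal cells (VLMC-1 and VLMC-2), 2 immature oligodendrocytes (Oligo1-1 and Oligo1-2) and 2 mature myelinating oligodendrocytes (Oligo5-1 and Oligo5-2).

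The labels of VLMC-1 and VLMC-2 call them oligodendrocyte progenitor cells, and their markers went against that label. Of the 10 listed VLMC markers, 8 were found in VLMC-1 with 97 transcripts and 9 in VLMC-2 with 241. Each oligodendrocyte had 0 to 2 transcripts of them. Fn1 went the other way, with 2 transcripts in Oligo5-1 and 0 in both VLMCs. Of the progenitor markers only Pdgfra was seen in them, with 5 and 3 transcripts, and Olig1, Olig2, Cspg4, Ptprz1 and C1ql1 were at 0 in both. The listed oligodendrocyte markers, Mbp among them, had 624 to 1551 transcripts in each of the 4 oligodendrocytes and were at 0 in both VLMCs. The listed immature oligodendrocyte markers were mixed. In Oligo1-1 and Oligo1-2 Itpr2 had 6 and 5 transcripts, Tcf7l2 3 and 3 and Gpr17 4 and 0, and all 3 were at 0 in Oligo5-1 and Oligo5-2. Enpp6 went the other way, with 0 in both Oligo1 cells and 4 and 3 in the Oligo5 cells, and Neu4 and Bmp4 were at 0 in all 6 cells. Oligo5-2 also held 36 transcripts of the listed neuron markers, 0.580% of its transcripts, with 19 of Snap25 and 9 of Syt1, and these markers were at 0 in the other 5 cells. The part of that RNA in the values of Oligo5-2 was not tested, and the values without this cell are given where the groups of genes are compared. Of the listed astrocyte markers VLMC-2 had 21 transcripts, all of Slc1a3 and 0.448% of its transcripts. VLMC-1 had 5, Oligo5-1 4, Oligo1-1 3 and the others 0, and the part of this RNA in the values was not tested either. The 6 cell barcodes were distinct, and the cells had 2338 to 11483 transcripts from 7610 to 20509 reads. Which animal a cell came from is unknown, and with 2 cells of a type an exact permutation test of 4 against 2 cells could not go below p = 0.0667, so no test was made between cell types.

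SR proteins bind exons and promote their use, while hnRNP proteins bind pre-mRNA and often oppose it. The CLK kinases phosphorylate SR proteins in the nucleus. The U2 proteins Sf3a and Sf3b, U2af, the Snrp proteins and the PRP factors are parts of the spliceosome. Many genes of these families are known to regulate themselves through their own splicing. They keep an intron, or include an exon with an in-frame stop codon, often called a poison exon, and such transcripts are held in the nucleus or removed by nonsense-mediated decay. Decay acts mainly when a stop codon lies some distance before the last exon junction. An early stop codon is therefore defined here as a first in-frame stop codon that lay 50 bases or more before the last junction of the molecule and at no annotated stop.

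The 8 stretches below are printed because they hold the stop codons on which the early stop calls of these genes turn, with the end of the exon before them.
Clk4, exon 2 and the 67-base exon: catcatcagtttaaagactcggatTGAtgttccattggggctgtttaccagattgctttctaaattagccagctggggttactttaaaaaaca
Clk4, exon 2, the 59-base exon and exon 3: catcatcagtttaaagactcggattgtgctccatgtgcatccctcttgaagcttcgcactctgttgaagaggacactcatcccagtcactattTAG
Clk1, exon 10 and the extended exon 11: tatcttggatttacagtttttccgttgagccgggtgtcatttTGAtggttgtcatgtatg
Srsf3, exon 3 and the 456-base exon: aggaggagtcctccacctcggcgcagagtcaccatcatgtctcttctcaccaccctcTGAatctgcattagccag
Srsf7, exon 3 and intron 3: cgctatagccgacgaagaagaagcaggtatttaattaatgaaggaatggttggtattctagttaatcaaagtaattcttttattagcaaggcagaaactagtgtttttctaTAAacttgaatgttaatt
Rbm39, exon 3 and the 72-base exon: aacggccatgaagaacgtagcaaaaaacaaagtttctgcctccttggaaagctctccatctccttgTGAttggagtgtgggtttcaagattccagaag
Snrpb, exon 5 and intron 5: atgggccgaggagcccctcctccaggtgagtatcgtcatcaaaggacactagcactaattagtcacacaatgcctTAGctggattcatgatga
Hnrnph1, exon 4 and exon 6: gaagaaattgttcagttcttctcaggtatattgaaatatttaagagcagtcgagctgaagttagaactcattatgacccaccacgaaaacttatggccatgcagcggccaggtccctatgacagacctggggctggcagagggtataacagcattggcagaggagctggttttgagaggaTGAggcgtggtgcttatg
The first Clk4 stretch joins chr11:51267306-51267331 and chr11:51268165-51268231 (plus strand). The second Clk4 stretch joins chr11:51267306-51267331 and chr11:51270537-51270595 and chr11:51271800-51271810 (plus strand). The Clk1 stretch joins chr1:58413390-58413413 and chr1:58413106-58413141 (minus strand). The Srsf3 stretch joins chr17:29038599-29038624 and chr17:29039454-29039502 (plus strand). The Srsf7 stretch is unspliced and runs through chr17:80205262-80205287 and chr17:80205159-80205261 (minus strand). The Rbm39 stretch joins chr2:156177336-156177361 and chr2:156174097-156174168 (minus strand). The Snrpb stretch is also unspliced, with chr2:130173036-130173060 and chr2:130172968-130173035 (minus strand). The Hnrnph1 stretch joins chr11:50379940-50379964 and chr11:50382537-50382709 (plus strand).

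Each sequence was read from the GENCODE M21 transcripts on GRCm38 and not from the molecules, whose letters were not used here, so that differences of the CD-1 strain are not seen. Each begins at the first base of a codon in the frame of the gene model, and the capitals mark the first in-frame stop codon. In the first Clk4 stretch the stop codon fell across the junction, with 2 of its bases in exon 2 and 1 in the added exon. In Hnrnph1 no base was added, and the stop appeared in exon 6 after the frame was shifted by the loss of exon 5.

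Of the 396 transcripts of these genes, VLMC-1 had 33 and VLMC-2 had 68. Oligo1-1 had 137, Oligo5-2 had 62, and Oligo1-2 and Oligo5-1 had 48 each. The counts are of molecules and are not scaled to gene length. As a share of all transcripts of the cell, VLMC-2 was highest with 1.45% (Wilson 95% interval 1.15 to 1.83%), followed by VLMC-1 with 1.41% (1.01 to 1.98%) and Oligo1-1 with 1.19% (1.01 to 1.41%). Oligo5-2 had 0.998% (0.780 to 1.28%), Oligo5-1 0.814% (0.615 to 1.08%) and Oligo1-2 0.794% (0.600 to 1.05%). Neighbours in this order did not differ beyond their intervals. Counted in transcripts, the interval of VLMC-2 lay above those of Oligo5-1 and Oligo1-2. Pooled over cells the share was 1.08% (0.979 to 1.19%). These intervals cover counting error only. Many UMIs of a gene in a cell were 1 base apart, or the same tag shifted by 1 base, and joining such UMIs left 343 groups of the 396 transcripts. Counts of transcripts are therefore given with the number of these UMI groups where the distinction matters. In UMI groups the member share was 1.54% in VLMC-2 (52 groups), 0.985% in Oligo5-1 (42 groups) and 0.996% in Oligo1-2 (48 groups). In these groups the Wilson interval of VLMC-2 overlapped those of Oligo5-1 and Oligo1-2. The second of the pooled PacBio runs was enriched for long molecules, and 54.8% of the member transcripts had a read in that run against 42.3% of the transcripts of other genes. The median aligned length was 1111 bases in members and 870 in other genes, and 37.9% and 37.0% covered an annotated first exon.

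By role, the hnRNPs had 92 transcripts of 12 genes, the DEAD-box helicases (Ddx) 85 of 19 genes, the SR proteins 58 of 9 genes and the RBM proteins 57 of 14 genes. The Ddx genes were grouped by name and include Ddx26b, with 3 transcripts, which the annotation names Ints6l. The CLK kinases had 36 transcripts of 4 genes, the U2 and 3′ splice site factors 26 of 5, the Snrp proteins 18 of 7, the PRP factors 18 of 9 and Tra2a and Tra2b together 6. CLK transcripts made up 0.214% of VLMC-1 (5 transcripts) and 0.277% of VLMC-2 (13 transcripts, 0.162 to 0.474%). In the oligodendrocytes they were between 0.0331% in Oligo1-2 and 0.0966% in Oligo5-2. The interval of VLMC-2 lay above those of Oligo1-1 and Oligo1-2 and overlapped those of Oligo5-1 and Oligo5-2. Counted in UMI groups, VLMC-2 had 8 of 3375, 0.237%, Oligo1-1 4 of 8249 and Oligo1-2 2 of 4820. VLMC-1 had 2 of 1698, 0.1178%, just below Oligo5-2 with 6 of 5067, 0.1184%. In these groups the Wilson interval of VLMC-2 overlapped those of the other 5 cells. The hnRNPs were highest in Oligo1-1 with 0.374% (43 transcripts, 0.278 to 0.504%), and this interval lay above that of Oligo5-1, 0.136% (8 transcripts, 0.0688 to 0.268%), but overlapped it in UMI groups, with 36 of 8249 and 7 of 4266. For SR proteins the shares ran from 0.0679% in Oligo5-1 to 0.213% in VLMC-2, with intervals that overlapped among all 6 cells.

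**Figure D1:**
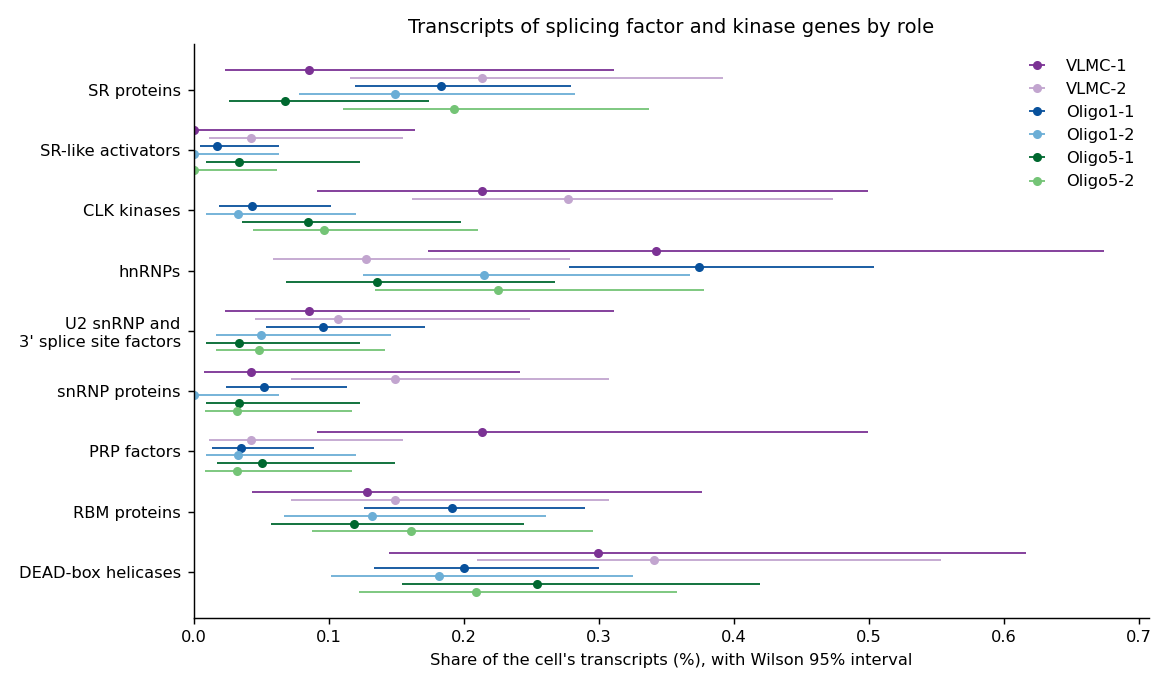
Share of the transcripts of each cell, in percent on the horizontal axis, for the genes of each role, with Wilson 95% intervals as bars and 1 point per cell. The 2 VLMCs have the highest points for the CLK kinases, 0.214% and 0.277%, and for the SR proteins the intervals of all 6 cells overlap. Points are of transcripts as deposited, and in UMI groups the CLK share of VLMC-1, 0.1178%, was just below that of Oligo5-2, 0.1184%.

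Counts of single genes were low. The median was 3 transcripts per detected member over the 6 cells, 11 of the 81 genes had 1 transcript, 19 were found in a single cell, and only Clk4 and Hnrnpl were seen in all 6. Hnrnpk, an hnRNP that binds C-rich RNA, had the most transcripts, with 10 in Oligo1-1, 4 in Oligo5-2, 3 each in Oligo1-2 and Oligo5-1, 1 in VLMC-2 and 0 in VLMC-1. The 10 of Oligo1-1 fell into 6 UMI groups. Clk1, the founding CLK kinase, had 11 transcripts in VLMC-2, 3 in Oligo1-1, 2 in VLMC-1, 1 in Oligo5-1 and 0 in the others. The 11 of VLMC-2 were 7 UMI groups from 47 reads. Clk4 had 4 transcripts in each of Oligo5-1 and Oligo5-2, 3 in VLMC-1, 2 in VLMC-2 and 1 in each of Oligo1-1 and Oligo1-2. Clk2 had 1 transcript in Oligo1-2 and 1 in Oligo5-2, and Clk3 had 1 in Oligo1-1 and 1 in Oligo5-2. Clk1 was thus concentrated in VLMC-2, while Clk4 was found at low counts in every cell. Among the DEAD-box helicases, Ddx3x, a helicase with a role in translation, had 10 transcripts in VLMC-2, 3 in Oligo1-1, 1 in Oligo1-2 and 0 in the others. Its copy on the Y chromosome, Ddx3y, chosen for mention after its values were seen, had 1 transcript in Oligo5-1, 3 in Oligo5-2 and 0 in the other 4 cells.

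Srsf7, an SR protein with a zinc knuckle, had 15 transcripts, with 1 in VLMC-2, 6 in Oligo1-1, 1 in Oligo5-1 and 7 in Oligo5-2. Srsf3, the smallest SR protein, had 12, with 3 in VLMC-2, 5 in Oligo1-1, 1 in Oligo1-2 and 3 in Oligo5-2. Srsf11 had 13 transcripts in 5 cells, between 1 and 5 in each. The other SR genes had few, with 6 for Srsf2, 4 each for Srsf1 and Srsf6, 2 for Srsf5 and 1 each for Srsf9 and Srsf10, and Tra2a and Tra2b had 3 each. Rbm39, a relative of the large U2af subunit, had 3 transcripts in VLMC-2, 8 in Oligo1-1, 1 in Oligo1-2 and 4 in Oligo5-1. Rbm25, which binds exonic enhancers, had 4 transcripts in Oligo1-2, 4 in Oligo5-2, 3 in VLMC-2, 1 in VLMC-1 and 0 in the others. Hnrnpu, a nuclear scaffold protein, had 9 transcripts in Oligo1-1, 2 in Oligo1-2 and 1 in Oligo5-1, and Ddx1 had 7 in Oligo1-1 and 0 to 2 in the others.

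**Figure D2:**
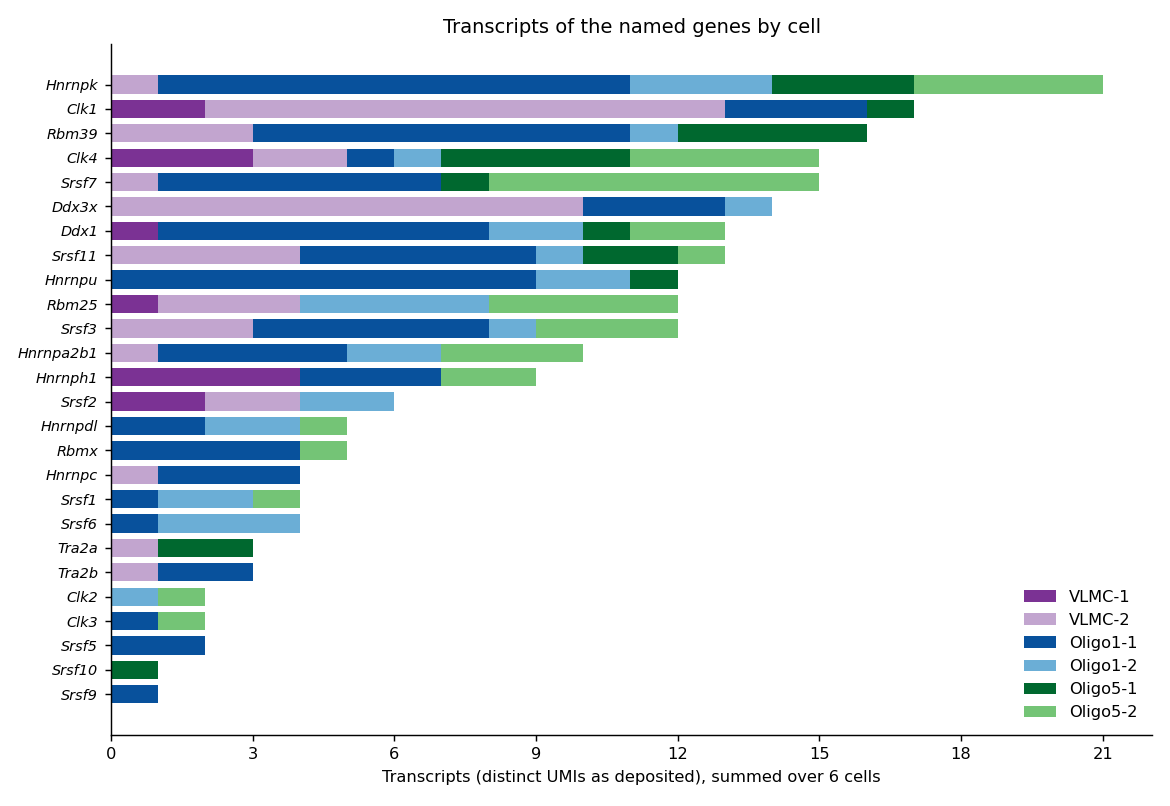
Transcripts of the named genes, as distinct UMIs on the horizontal axis, stacked by cell. Most of the 17 transcripts of Clk1 come from VLMC-2, with 11, and those of Clk4 are spread over all 6 cells.

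To ask how these genes were spliced relative to other genes of the same cell, each molecule was compared with the RefSeq-linked coding transcript of its gene that has the most exons, called the coding model. A retained intron is an intron of the model covered by 1 aligned block together with 10 bases on both sides. Of 267 member transcripts that spanned an intron, 21 had a retained intron, 7.87% (5.20 to 11.7%), in 17 UMI groups of 10 genes. Among other genes it was 379 of 19044, 1.99%, and over all single genes the share was 2.07%. The difference of members minus other genes was 5.88 percentage points (Newcombe 95% interval 3.20 to 9.74), but 3.03 in the short run alone and 1.25 with 1 entry per gene, the mean of the shares of genes. An early stop codon was found in 27 of 243 member transcripts with a readable frame, 11.1% (7.75 to 15.7%), in 21 UMI groups of 10 genes. In other genes it was 497 of 17456, 2.85%, with 2.96% over all single genes, and the difference was 8.26 percentage points (4.89 to 12.8), but 0.674 in the short run alone and 1.39 with 1 entry per gene. A frame was not read, for example, in molecules of a single block or with bases outside every annotated transcript, whose letters were not used here. Of the 21 member transcripts with a retained intron 12 had a readable frame, and 190 of 379 in other genes, so that the early stop shares leave out many of these molecules. Of the 27 stop codons, 25 were read from the annotated start codon, and they lay 84 to 2579 bases before the last junction.

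For skipped exons the size and direction of the difference changed with the settings. A skipped exon, an internal exon of the model that a junction passed over, was found in 23 of 247 member transcripts, 9.31% (6.29 to 13.6%), against 1796 of 17541, 10.2%, in other genes and 10.2% over all. The difference was -0.927 percentage points (-3.99 to 3.37). It was -4.62 with UMIs read 2 or more times and also -4.62 without Oligo1-1, where the member share was 4.76%, and 6.12 when the model with the most exons was used whether coding or not. An exon outside the coding model, an internal block that overlapped none of its exons, was found in 18 of 238 member transcripts with 3 or more blocks, 7.56% (4.84 to 11.6%), in 13 UMI groups of 5 genes. In other genes it was 803 of 17133, 4.69%, with 4.73% over all, and the difference was 2.88 percentage points (0.131 to 6.96). Without Clk1 and Clk4 this difference was -1.32. Counted by gene, 15.4% of 65 members and 5.54% of 4132 other genes had a transcript with a retained intron, with 5.69% over all genes. For early stop codons it was 15.9% of 63 members and 7.62% of 3738 others, with 7.76% over all. For skipped exons it was 16.1% of 62 members and 18.2% of 3825 others, with 18.1% over all, and for exons outside the coding model 8.20% of 61 and 8.38% of 3724, with 8.38% over all. Members had more transcripts per gene, a median of 3 against 2, and the part of this in the gene shares was not tested.

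The differences varied between cells. Retained introns were found in 8 of 45 member transcripts of VLMC-2, 5 of 104 of Oligo1-1, 2 of 24 of Oligo1-2, 6 of 50 of Oligo5-2, and 0 of 18 and 0 of 26 in VLMC-1 and Oligo5-1. In the first 4 of these cells the share was above that of other genes and the interval of the difference lay above 0. The difference ran from 3.08 percentage points in Oligo1-1 to 14.6 in VLMC-2. The 8 transcripts of VLMC-2 were 5 UMI groups of 2 genes, with 7 of them, in 4 UMI groups, of Clk1. These intervals treat such transcripts as independent. Early stop codons were found in 5 of 41 member transcripts of VLMC-2, 13 of 99 of Oligo1-1, 4 of 23 of Oligo5-1, 5 of 44 of Oligo5-2, and 0 of 16 and 0 of 20 in VLMC-1 and Oligo1-2. In the 4 cells with such transcripts the difference was between 7.44 and 15.7 percentage points, each with an interval above 0. The 4 of Oligo5-1 were all of Clk4, in 3 UMI groups. When the frame from every annotated start had to end early, Oligo5-1 had 0 of 23, Oligo5-2 had 2 of 44, 4.55% against 3.67% in other genes, with an interval of the difference that held 0, and the counts of VLMC-2 and Oligo1-1 stayed at 5 and 13. Pooled, this left 20 of 243 and a difference of 5.61 percentage points (2.76 to 9.75). VLMC-1 and Oligo1-2 also had the lowest shares of member transcripts that covered a first exon, 12.1% and 8.33%, against 14.6 to 53.2% in the other cells, and the part of this in the counts was not tested. Skipped exons were lower in members than in other genes in 4 of the 6 cells, with 16 of the 23 in Oligo1-1 and 0 of 42 in VLMC-2. Without Oligo5-2 the difference was 4.89 percentage points for retained introns and 8.48 for early stop codons. Without Clk1 and Clk4 it was 2.67 and 4.59. Among transcripts with a read in the long run 25 of 166 members and 3.52% of other transcripts had an early stop codon, while among those of the short run alone it was 2 of 77, 2.60%, and 1.92%.

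**Figure D3:**
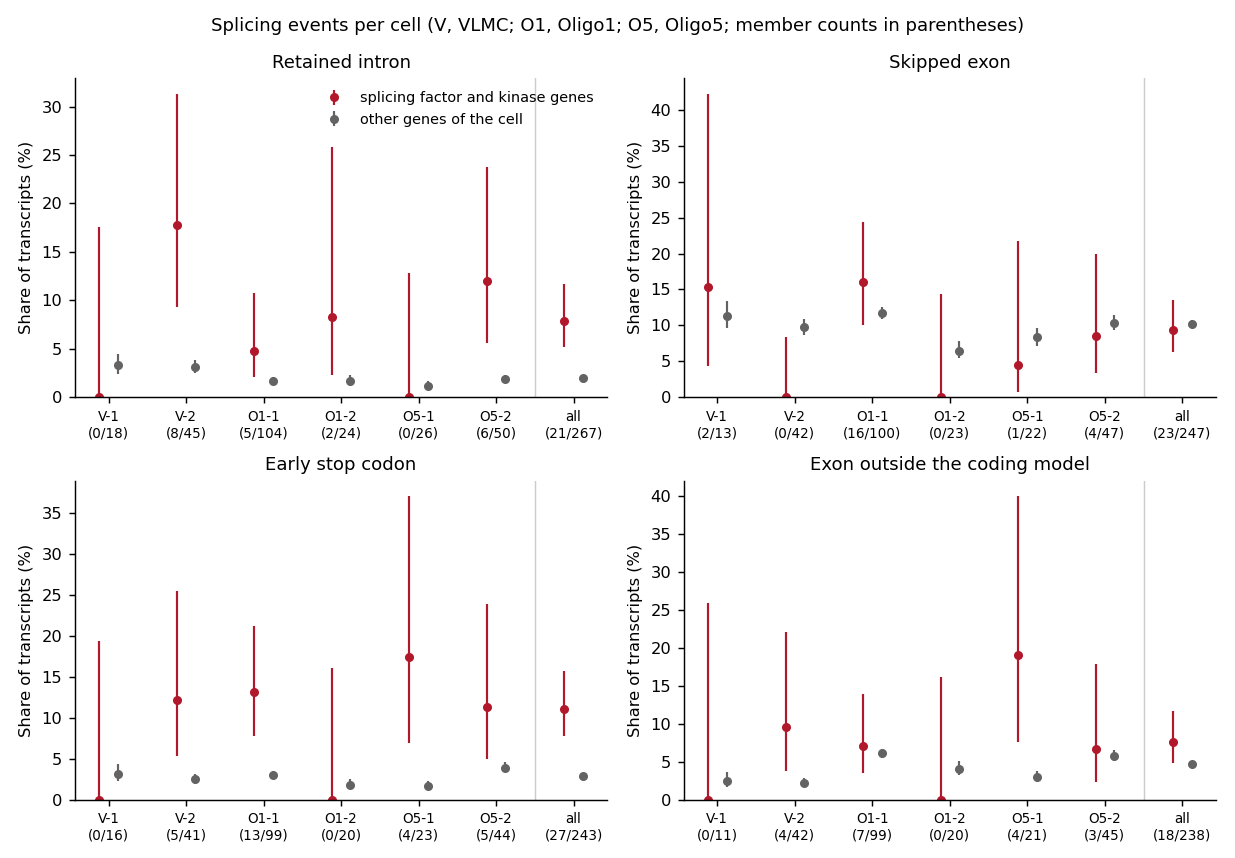
Share of transcripts with each event, in percent on the vertical axis, in each cell and pooled, with Wilson 95% intervals as bars, for splicing factor and kinase genes in red and for other genes of the same cell in grey. For retained introns and early stop codons 4 of the 6 red points lie above the grey points, and for skipped exons 2 of 6 do.

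By role, the CLK kinases held 10 of the 21 transcripts with a retained intron, among 34 that spanned one, and 11 of the 27 with an early stop codon, among 31 with a frame. SR proteins had 0 of 39 transcripts with a retained intron and 5 of 37 with an early stop codon, in Srsf3 and Srsf7. The hnRNPs had 17 of the 23 transcripts with a skipped exon, among 54, in 4 genes and 11 UMI groups. RBM proteins had 6 early stop codons in 39 transcripts, all of Rbm39 and Rbmx. The U2 and 3′ splice site factors and the PRP factors had 0 transcripts with a retained intron, among 21 and 9 that spanned one. They had 0 with an early stop codon, among 18 and 8 with a frame. Over all single genes the shares were 2.07% and 2.96%, and so few transcripts cannot tell 0 from them. DEAD-box helicases had 3 of 46 transcripts with a retained intron and 0 of 39 with an early stop codon, where 2 of the 3 with a retained intron had no readable frame.

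The retained introns of Clk1 were all in VLMC-2. Clk1 lies on the minus strand of chromosome 1 (58410189 to 58424066) and its coding model has 13 exons. Of its 11 transcripts in VLMC-2, 7 retained an intron, in 4 UMI groups, 1 ended within intron 7, and 3 followed the model, in 2 UMI groups, 1 of them with a single block. Intron 11 (58412738 to 58412946, 209 bases) was retained in 4 transcripts of 2 UMI groups, the best read of them with 10 reads. In these molecules exon 11 also began upstream of its model start, at 58413141, and the TGA at 58413121 to 58413123 in the added bases, printed above, lay 474 bases before the last junction in the 3 that had a readable frame. In the fourth, 1 read placed a block of 3 bases within intron 5, and the frame was not read. Intron 12 (58412341 to 58412646, 306 bases) was retained in 2 transcripts of 1 UMI group with 9 reads and 1 read, which also removed the last junction. Intron 8 (58414502 to 58414589, 88 bases) was retained in 1 transcript with 10 reads. The TGA itself lies in intron 10. Bases of intron 10 were found in 4 of the 9 transcripts of VLMC-2 that spanned it and in 0 of 2 of VLMC-1 and 0 of 2 of Oligo1-1, and no other Clk1 molecule spanned it.

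The best known alternative exon of Clk1 is exon 4, whose skipping removes the kinase domain. Exon 4 (58420121 to 58420211, 91 bases) was present in all 15 Clk1 transcripts that spanned it, and introns 3 and 4 beside it were spliced out in all 15. These were 9 UMI groups. A count of 0 of 15 allows a share of up to 20% if each transcript is counted separately, and a higher one if UMI groups are counted. One transcript of Oligo1-1 and 1 of VLMC-2, with 2 and 6 reads, read on from exon 7 into intron 7 and ended there, at 58416635 and 58416949. Both ends lie in exons of other annotated transcripts of the gene.

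No Clk4 molecule joined exon 2 to exon 3 as the coding model does. Clk4 lies on the plus strand of chromosome 11 (51261730 to 51281766). Of its 15 transcripts, 10 contained both exon 2 and exon 3, in 8 UMI groups. All 10 had 1 to 3 exons between them that the coding model lacks. A count of 0 of 10 with the model junction allows a share of up to 30% if each transcript is counted separately, and a higher one if UMI groups are counted. The added exons had 67 bases (51268165 to 51268231), 78 or 95 bases from a shared start (51268769 to 51268846 or 51268863), and 59 bases (51270537 to 51270595). Oligo5-1 had 4 transcripts with the 67-base exon, 2 followed by the 78-base and 2 by the 95-base form, and none with the 59-base exon. The 2 transcripts of VLMC-2, in 1 UMI group, and 2 of Oligo5-2 had the 59-base exon alone, 1 of Oligo1-1 had the 67-base and the 59-base exon, and 1 of Oligo5-2 had the 67-base, 78-base and 59-base exons. The remaining transcripts could not show this region, since 4 began after exon 2, among them the 3 of VLMC-1, and 1 of Oligo5-2 ended in intron 2.

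Read from the start codon at 51267171, the 67-base exon completed a TGA with its first base, 1288 to 1460 bases before the last junction, in 6 transcripts of Oligo1-1, Oligo5-1 and Oligo5-2. With the 59-base exon alone the frame met a TAG in exon 3, in the 2 transcripts of Oligo5-2, which also retained introns 3 and 4 (51272023 to 51273077 and 51273169 to 51273559). The transcript of Oligo1-1 retained intron 7 (51275579 to 51275769, 191 bases). In VLMC-2 the 2 transcripts ended within intron 3 and had no junction after the stop. The annotation also gives Clk4 a start codon at 51267229, 58 bases downstream and in another frame, used by 4 annotated transcripts. Another lies at 51273625, 6454 bases after the first on the chromosome, and is used by 2 annotated transcripts. Which of these starts undid a call is not given here. When a stop codon was called early only if the frame from every annotated start in the molecule ended early, 1 of the 8 Clk4 calls remained, that of Oligo1-1, and 20 of the 27 calls of all members.

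**Figure D4:**
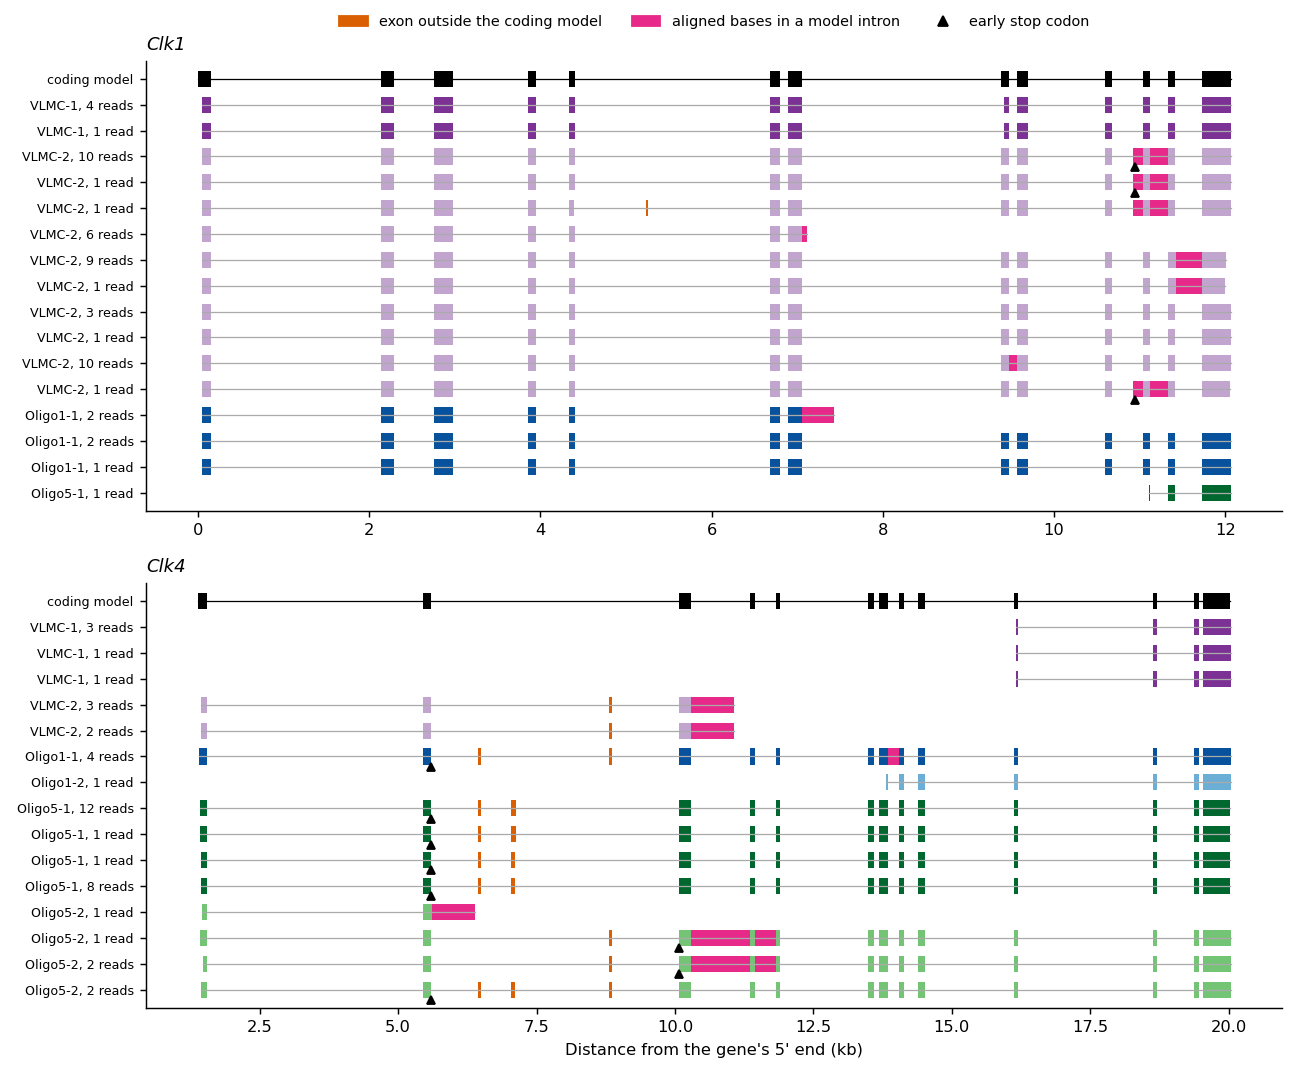
Aligned blocks of all Clk1 and Clk4 transcripts with 2 or more blocks, 1 line per transcript with its cell and number of reads, against the distance from the 5′ end of the gene in kb, with the coding model in black. Pink blocks are aligned bases in a model intron, orange blocks are exons outside the coding model and triangles are early stop codons. The 7 Clk1 transcripts with a retained intron are all of VLMC-2, and all 10 Clk4 transcripts with exons 2 and 3 have orange blocks between them.

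The early stop codons of SR proteins were in the third intron of Srsf3 and Srsf7, both on chromosome 17. In Srsf3, an exon of 456 bases (29039454 to 29039909) between exons 3 and 4 was included in 1 transcript of VLMC-2 with 2 reads, and its TGA at 29039485 lay 548 bases before the last junction. The other 2 Srsf3 transcripts of VLMC-2, with 5 reads and 1 read, began within this exon and were spliced to exon 4, so that all 3 transcripts of this cell, in 3 UMI groups, held bases of it. None of the 5 transcripts of Oligo1-1 and 3 of Oligo5-2 that reached this intron did. In Srsf7, exon 3 read on for 640 bases into intron 3, to 80204622, in 2 transcripts of Oligo1-1 and 2 of Oligo5-2, all in separate UMI groups with 1 to 3 reads. Their TAA at 80205174 to 80205176 lay 828 bases before the last junction. The 1 Srsf7 transcript of VLMC-2, with 2 reads, was spliced from exon 3 to a place within the same intron and ended there, at 80204535. In all, 5 of 13 Srsf7 transcripts that reached intron 3 held bases of it. The other 4 transcripts of Oligo1-1 and 4 of Oligo5-2 that reached it had spliced it out.

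The 3′ ends of these genes differed as well. In Srsf7, 5 transcripts ended 289 to 292 bases into the last exon, which has 1523 bases, 1 ended at 1049 bases, and 8 ended within the last 10 bases of it. In Srsf3, whose last exon has 1990 bases, 6 transcripts ended 1504 to 1513 bases into it, 1 at 113 bases, 2 at 704 to 710 bases, 2 at 1811 to 1815 bases, and 1 at 1982 bases. Srsf11 had 2 transcripts of Oligo1-1, in 1 UMI group, that ended in intron 6, outside every annotated exon, and Srsf1 and Tra2b had 1 transcript each that ended in intron 1. Srsf2, Srsf5, Srsf6, Srsf9, Srsf10 and Tra2a had no event of these kinds, with 1 to 6 transcripts each. No transcript of Srsf9, Srsf10 or Tra2a spanned an intron or had a readable frame, so they could not show a retained intron, skipped exon or early stop codon. An intron was spanned by 4 transcripts of Srsf2, 2 of Srsf5 and 1 of Srsf6, and no Srsf2 transcript spanned an internal exon. Ends within an intron of the model were found in 22 of 396 member transcripts, 5.56%, against 2.86% of 35394 others. Of the 22, 8 were of Hnrnpa2b1, and these ended within exons of other annotated transcripts of the gene. Outside every annotated exon there were 4 of 396, 1.01%, and 1.47% of the others, so that the direction turned with the definition.

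Rbm39 had an exon of 72 bases (156174097 to 156174168, chromosome 2, minus strand) between exons 3 and 4 in 2 transcripts of Oligo1-1, in 2 UMI groups with 6 reads and 1 read. Its TGA lay 1402 and 1420 bases before the last junction, and the other 5 transcripts that spanned this place lacked the exon. Rbmx, an hnRNP-like protein of chromosome X, had 4 transcripts in Oligo1-1, which were 1 UMI group with 5 reads. In them exon 8 was joined to an exon of 89 bases (57385133 to 57385221) beyond the last exon of the model, and the TGA at its start lay 84 bases before the last junction. The exons of Clk4 with 59, 67 and 78 bases and those of Rbm39, Rbmx and Srsf3 are each part of annotated transcripts of the nonsense-mediated decay class. Of the 18 member transcripts with an exon outside the coding model, 1 had one that overlapped no annotated exon, which was the block of 3 bases in Clk1.

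Among the hnRNPs the events were mostly skipped exons. In Hnrnpk, exon 3 (58402064 to 58402117, chromosome 13, 54 bases, in the 5′ UTR) was absent from all 8 transcripts that spanned it, in 4 UMI groups, and 2 of them, in 1 UMI group with 3 reads, lacked exons 3 to 8 together. In 1 Hnrnpk transcript with 1 read exon 15 of 16 bases was skipped while exon 14 was longer than the model by the same number of bases, 16, and its early stop codon rests on that placement. Hnrnph1, which binds G-rich RNA, lacked exon 5 (50381459 to 50381597, chromosome 11, 139 bases) in 2 transcripts of Oligo1-1 in 1 UMI group, with a TGA 656 bases before the last junction. In VLMC-1 2 transcripts in 1 UMI group lacked exon 13 (50385141 to 50385190, 50 bases). Hnrnpc, which binds U-rich RNA, lacked exon 2 (52098015 to 52098040, chromosome 14, 26 bases, in the 5′ UTR) in 2 of 4 transcripts. In Hnrnpa2b1, which is known to bind RNA during its transport, exons 5 to 10 were each skipped in 2 or 3 of 7 or 8 transcripts, 2 of them with 1 read each lacking all 6. Retained introns were found in Hnrnpdl, in 2 transcripts of 2 cells at intron 7 (100034985 to 100036103, chromosome 5, in the 3′ UTR), 1 of which also retained intron 6, and in 1 transcript each of Hnrnpu and Hnrnpa2b1. Of these 4 transcripts only that of Hnrnpdl in Oligo1-1 had a readable frame, and it had no early stop codon.

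In the other groups the events were single molecules. Snrpb, a core protein of the spliceosomal snRNPs, retained intron 5 (130172729 to 130173035, chromosome 2, 307 bases) in 1 transcript of VLMC-2 with 1 read, with a TAG 380 bases before the last junction. Snrpa1 lacked exon 6 (66070119 to 66070198, chromosome 7, 80 bases) in 1 transcript of Oligo1-1 with 1 read, with a TAA 164 bases before the last junction. Ddx1 retained 4 introns in 2 transcripts of Oligo1-1, with 2 reads for each intron. Rbm25 retained intron 15 (83674664 to 83675043, chromosome 12, 380 bases) in 2 transcripts of Oligo5-2 in 1 UMI group. Rbm5 and Ddx55 had 1 transcript each with a retained intron. Rbm39 lacked exon 5 in 1 transcript with 1 read.

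Other genes of the splicing pathway were listed for comparison. Of 32 other splicing regulators, 24 were detected with 203 transcripts, among them 51 of Son, 48 of Qk and 42 of Mbnl2. They had a retained intron in 7 of 103 transcripts, 6.80%, and an early stop codon in 5 of 99, 5.05%. Of the 7 with a retained intron, 3 were of Srrm1, 2 of Pnisr and 2 of Matr3. Skipped exons were found in 10 of 100, 8 of them in Mbnl2. Over all single genes the shares were 2.07% for retained introns, 2.96% for early stop codons and 10.2% for skipped exons. In members they were 7.87%, 11.1% and 9.31%, so that the retained intron share of these regulators was near that of members. The other kinases of SR proteins had 7 transcripts, 6 of them of Srpk2, and 7 of 12 exon junction and decay factors had 16, 9 of them of Eif4a3, with 0 retained introns in 14 and 1 early stop codon in 13.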

How the data were processed

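Single cells were lysed and their cDNA, tagged with a cell barcode and a UMI, was sequenced on PacBio in a first run, from which short molecules had been removed on a gel, and a second run enriched for long molecules. The authors split joined reads, aligned them to mm10 (with GMAP by the study's methods, while the submitters' processing notes list GSNAP), kept uniquely aligned reads, joined blocks less than 40 bases apart and merged reads that shared cell, gene and UMI. A correction of UMI errors is not given in the sources used here. The deposited table holds whole-number counts of reads per transcript with the block positions, and each of its rows was counted here as 1 transcript. The 356 transcripts named for more than 1 gene were left out of the comparisons with other genes, and 0 columns belonged to other samples.

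The members and gene lists were chosen with earlier results of these data known. Gene names were matched to GENCODE M21 on GRCm38, 6132 by symbol and 203 by synonym, and 22 were unmatched. Junctions within 5 bases of an annotated splice site were moved to it. Introns under 40 bases were not considered. Other genes were all single genes outside the name rule in the same cell. Named were every detected Clk, Srsf and Tra2 gene, the 12 members with the most transcripts, and the 5 with the most transcripts of each kind of event. Hnrnpl, Snrpb, Snrpa1, Ddx3y, Ddx55 and Rbm5 were named in addition, after their values were seen.

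No significance test was run: each cell type has 2 cells, their animals are not given, and p-values over the members would rest on names chosen with results known. Shares carry Wilson and differences Newcombe 95% intervals, which cover counting error only, since molecules of 1 cell and UMIs of 1 group are not independent. Depth was 2338 to 11483 transcripts per cell, so a count of 0 allows 0.0261 to 0.128% of a cell's transcripts. The alternatives were more reads per UMI, either run alone, each cell left out, merged UMIs, members left out and other definitions of each event. The calls were tested on simulated molecules with planted events. Python 3.11.15, pandas 2.3.3, numpy 2.4.6, scipy 1.17.1 and matplotlib 3.10.9 were used.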

Additional observations from a re-analysis of the deposited data

How the results depend on the processing

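The retained intron difference stayed above 0 in 20 of 20 alternatives and the early stop codon difference in 19 of 19, the skipped exon difference was above 0 in 7 of 18 and that of exons outside the coding model in 13 of 17. Of 161 alternative values 115 moved by less than their interval. The alternatives that joined UMIs with a shift of 1 base, left out Clk1 and Clk4, used a model with the most exons whether coding or not, or required an early stop from every start codon were chosen after seeing the data.

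The share of all transcripts that were of members, 1.08%, was 1.38% in the long run, 0.853% in the short run alone, 0.850% without Ddx genes and 1.23% with UMIs joined at 1 base or also at a shift. Joining acts by construction on abundant genes, whose UMIs chain together. In the short run alone the share and difference were 4.40% and 3.03 percentage points for retained introns, 5.06% and -4.45 for skipped exons, 2.60% and 0.674 for early stop codons, and 1.41% and -2.22 for exons outside the model. Without Clk1 and Clk4 they were 4.66% and 2.67 for retained introns, 7.44% and 4.59 for early stops, and 3.37% and -1.32 for exons outside the model. With 1 entry per gene they were 4.22% and 1.25 for retained introns, 6.28% and -5.02 for skipped exons, 5.38% and 1.39 for early stops, and 3.31% and -1.08 for exons outside the model. With UMIs read 2 or more times skipped exons had 5.31% and -4.62. With a first exon covered early stops had 18.4% and 15.2 and exons outside the model 12.1% and 7.44. Counted per intron, retention was 1.33% with a difference of 0.937, and skipping per exon was 2.59%. Skipped exons were 6.17% over exons of every RefSeq model, and 16.6% with a difference of 6.12 in the model with the most exons. Early stops were 18.8% with a difference of 15.9 when the start codon had to be included, and 16.5% with junctions as deposited. Exons overlapping no annotated exon were 0.420% with a difference of -0.852. The causes were not tested.

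With each cell left out, the member share was 1.03 to 1.14%. Retained introns were 5.86 to 9.82% with a difference of 4.07 to 7.68, lowest without VLMC-2. Early stops were 9.72 to 12.1% with a difference of 6.97 to 9.15. Skipped exons were 4.76 to 11.2% with a difference of -4.62, without Oligo1-1, to 0.891, without VLMC-2. Exons outside the model were 6.45 to 8.26% with a difference of 1.55, without Oligo5-1, to 4.06. No paired analysis was possible because the values come from no test and the cell numbers only name the cells. With a median of 3 transcripts per gene over all cells, a difference in events between cells was for most single genes not detectable at this depth.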

Other observations

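A further 10 transcripts were assigned to a member together with an overlapping or neighbouring gene and enter no share above. Among them were 2 each of Ddx5 with Mir3064, Ddx17 with Kdelr3 and Hnrnph3 with Rufy2, and 1 each of Snrpf with Ccdc38, Prpf39 with Fkbp3 and Rbm10 with Ndufb11.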
